A study of Mus musculus with 20 samples.

Results

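The genes described here encode the ligands and receptors of axon guidance. They were chosen by symbol among 21631 protein-coding mouse genes: the ephrins, Eph receptors, semaphorins, plexins, neuropilins, Slits, Robos, netrins, and the netrin receptors Dcc and Unc5a to Unc5d. The rule found 71 genes, and 56 of them (78.9%) had a Suz12 region at an annotated end, against 36.8% of all genes.

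Suz12 belongs to the core of PRC2, the Polycomb complex that methylates histone H3 at lysine 27 (H3K27me3). The complex occupies CpG-rich promoters, and in embryonic stem cells many of these belong to developmental genes with little or no transcription. Guidance ligands are secreted or membrane-bound cues that steer growing axons and migrating cells. Ephrins act on Eph receptors, semaphorins on plexins and neuropilins, Slits on Robos, and netrins on Dcc and the Unc5 receptors.

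Chromatin immunoprecipitation and sequencing (ChIP-seq) for Suz12 was performed on E14-WT cells, a wild-type line of mouse embryonic stem cells, cultured in serum. The libraries came from cells before treatment (0 h) and after 12 h of DRB at 100 µM, and from cells before treatment and after 9 h of triptolide at 10 µM. DRB blocks productive elongation by RNA polymerase II, and triptolide blocks transcription initiation. Each of these 4 groups had 2 libraries, which the series describes as biological replicates, and the other 12 of 20 samples were not analysed here. All libraries come from 1 cell line, and without expression values in the lists the cell type was not checked against markers. In bulk chromatin, fewer cells with Suz12 at a region and less Suz12 per cell cannot be told apart.

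The libraries held between 1323926 and 7340023 reads over 11943 regions, which were made by merging the peaks of all 8 lists. A region was called kept when all 8 lists had a peak there, and gained when all 4 treated lists and no untreated list had one. The column names place the untreated libraries in sequencing lanes 1 and 4 and the treated ones in lanes 3 and 6, so lane and treatment cannot be told apart. Levels are counts per 1e+06 reads over regions (CPM) after scaling by the trimmed mean of M values (TMM). Where 2 values are given for a group, DRB values are in the order of sequencing index ATCACG and TGACCA, and triptolide values in the order of replicates 1 and 2. Levels and fold changes are relative within the regions and give no absolute amount of Suz12.

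These promoters are shown as examples of a gained region, of kept regions that rose and fell, and of a gene with no region. Each is the RefSeq window from 250 bases before to 50 after an annotated start (GRCm38.p6), written 5′ to 3′ on the strand of the gene, with every CpG dinucleotide in capitals. Ephb3 (chr16:21204545-21204844, plus strand) lies in a gained region and holds 23 CpG. Ntn3 (chr17:24209338-24209637, minus strand) lies in a kept region with more reads after treatment and holds 16. Unc5c (chr3:141465314-141465613, plus strand) lies in a kept region with fewer reads and holds 24. Sema3a (chr5:13396534-13396833, plus strand) had no Suz12 region and holds 2.
Ephb3: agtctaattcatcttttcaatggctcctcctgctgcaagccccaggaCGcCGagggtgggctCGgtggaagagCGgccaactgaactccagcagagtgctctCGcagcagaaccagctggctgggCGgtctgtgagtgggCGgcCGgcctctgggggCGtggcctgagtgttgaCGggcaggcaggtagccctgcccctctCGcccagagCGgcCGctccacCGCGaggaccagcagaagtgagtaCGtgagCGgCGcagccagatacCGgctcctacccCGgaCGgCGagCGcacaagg
Ntn3: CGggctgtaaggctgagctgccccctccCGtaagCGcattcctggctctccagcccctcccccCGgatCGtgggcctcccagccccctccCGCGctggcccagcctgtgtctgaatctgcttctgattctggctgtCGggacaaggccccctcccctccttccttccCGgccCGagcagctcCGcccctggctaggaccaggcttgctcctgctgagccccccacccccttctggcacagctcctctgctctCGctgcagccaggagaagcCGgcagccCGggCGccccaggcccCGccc
Unc5c: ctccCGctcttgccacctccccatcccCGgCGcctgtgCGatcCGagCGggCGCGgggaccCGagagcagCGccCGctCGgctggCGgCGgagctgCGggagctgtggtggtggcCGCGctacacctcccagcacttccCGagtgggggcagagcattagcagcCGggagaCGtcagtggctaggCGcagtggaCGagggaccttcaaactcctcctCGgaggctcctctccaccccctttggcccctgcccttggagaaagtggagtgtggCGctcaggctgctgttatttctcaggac
Sema3a: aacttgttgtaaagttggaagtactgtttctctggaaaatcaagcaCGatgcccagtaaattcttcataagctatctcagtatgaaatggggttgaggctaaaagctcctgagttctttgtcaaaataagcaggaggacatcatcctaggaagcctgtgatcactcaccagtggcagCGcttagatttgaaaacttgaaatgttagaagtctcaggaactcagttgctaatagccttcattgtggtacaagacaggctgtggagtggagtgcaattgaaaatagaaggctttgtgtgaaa

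RefSeq windows were matched for 61 of the 71 genes, giving 77 windows. A start inside a Suz12 region was found for 57 windows, or 74.0%, against 31.2% of the 21045 windows of all protein-coding genes. The members' windows inside a region had a median of 23 CpG, and 96.5% had at least 10. Windows of all genes inside a region had a median of 24, and 91.4% had at least 10. The 20 member windows outside any region had a median of 5 CpG, and 15% had at least 10, against a median of 7 and 41.9% for all genes outside a region. Starts in a region were grouped by the call at the gene's region with most reads, which need not hold the start, as at Robo1. Medians were 21 CpG at members with more Suz12 reads after treatment (12 windows) and 23 at members with fewer (25 windows). The ranges of these groups, 10 to 35 and 8 to 56, overlapped. The motif searched was CG, which reads the same on both strands.

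**Figure D1:**
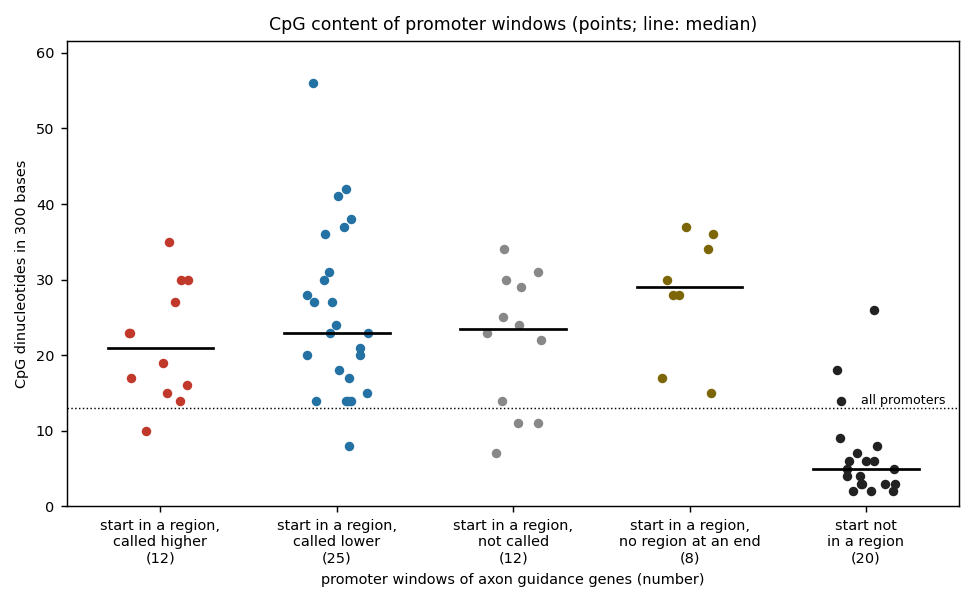
CpG dinucleotides in 300-base promoter windows of axon guidance genes (vertical axis, number), by whether the start lies in a Suz12 region and by the call over both drugs; points are windows, solid lines medians, and the dotted line the median of all protein-coding promoters, 13. Calls are those of the gene's region with most reads. Windows outside a region lie lowest, with a median of 5, while called higher and called lower windows overlap.

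Suz12 already occupied most of these genes before treatment. Of the 71 genes, 41 (57.7%) had a kept region, against 3154 of all 21631 genes, and 3 had a gained region (4.23%, against 4.02% of all genes), namely Ephb3, Ephb4 and Sema4d. None had a lost region, 12 had another pattern of lists, and 15 had no region within 1 kb of an end. In the untreated lists, 43 to 47 of the genes (60.6% to 66.2%) had a peak, and in the treated lists 50 to 55 (70.4% to 77.5%). Of all genes, 15.9% to 19.8% had one in the untreated lists and 23.2% to 34.3% in the treated lists. Reads over regions were 1323926 and 4396744 at DRB 0 h and 2416530 and 7340023 at 12 h. They were 3699979 and 3070233 at triptolide 0 h and 4334366 and 4441617 at 9 h. The effect of this difference in reads on peak lists and covered length was not tested. All 8 ephrins and both neuropilins had a region, as did 12 of 14 Eph receptors, 16 of 20 semaphorins, 6 of 9 plexins, 5 of 6 netrins and 4 of 5 netrin receptors. Only 1 of 3 Slits and 2 of 4 Robos had one at an end.

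**Figure D2:**
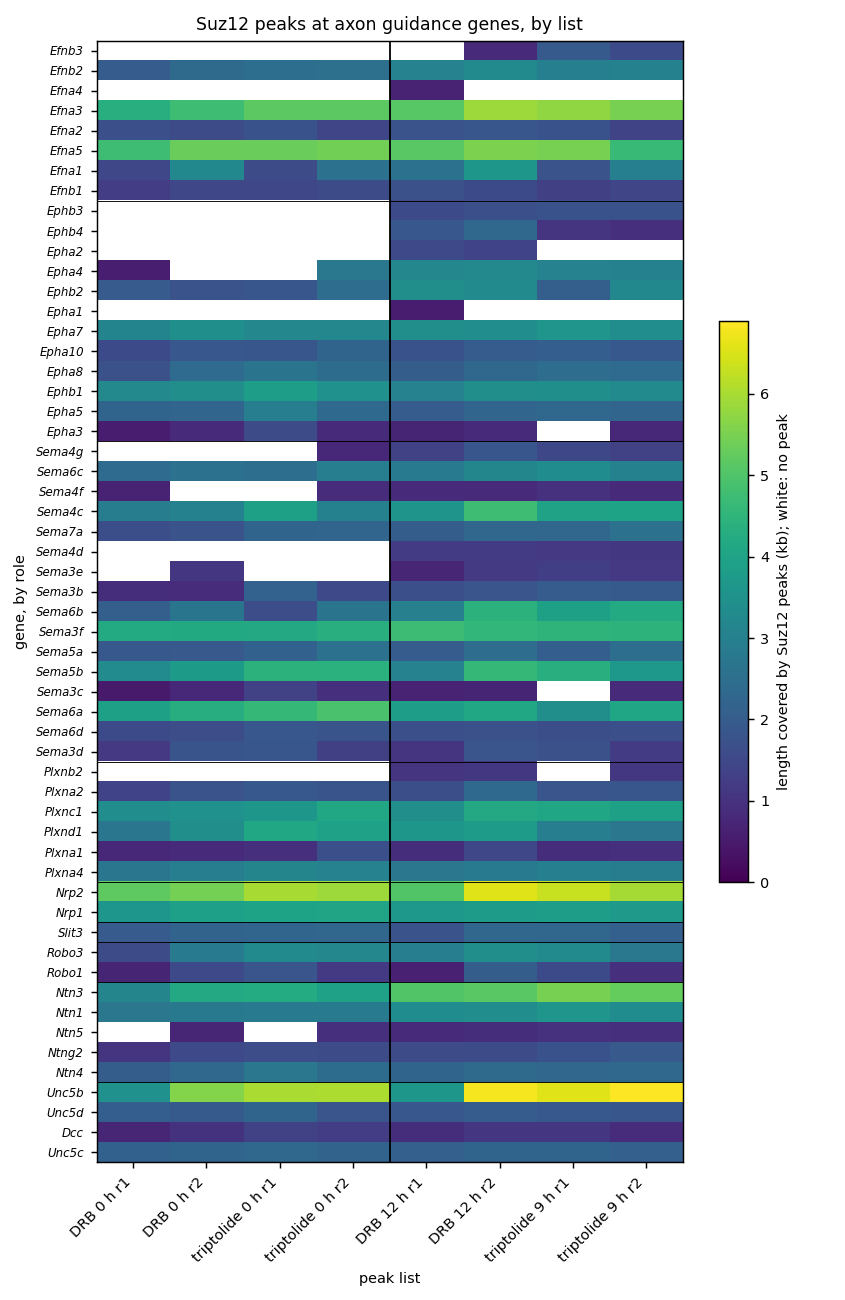
Length covered by Suz12 peaks (colour, kb) at the region of each axon guidance gene (rows, grouped by role and separated by lines) in each of 8 peak lists (columns; untreated left of the vertical line, treated right). White marks no peak; Ephb3, Ephb4 and Sema4d are white in all 4 untreated lists and coloured in all 4 treated lists.

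The question of the comparison is where Suz12 reads differ after transcription is blocked. Over both drugs, 12 of the 56 genes were higher, 28 were lower and 16 were not called, at an adjusted p under 0.05 (edgeR quasi-likelihood test, Benjamini-Hochberg over all regions). Of all regions, 28.0% were called higher and 28.9% lower. The median log2 fold change was -0.26 at the 56 genes and 0.05 over all regions. All regions include those away from gene ends. Of the 7963 genes with a region, taken by the same rule as the members, 35.1% were higher and 25.9% lower, with a median of 0.20. Most members were regions of all 8 lists, and among those 41 genes 5 were higher and 26 lower, with a median of -0.36. Over all 4281 kept regions, 10.3% were higher and 59.1% lower, with a median of -0.38, so the share of members called lower was close to that background. The number of calls in each direction depended on scaling. When libraries were scaled to the reads in kept regions, 21 members were higher and 10 lower, against 47.4% and 11.2% of all regions. All 12 higher calls were kept, 18 of the 28 lower calls were lost, and no call took the opposite direction. That scaling moved the median of all regions to 0.39 and that of the members to 0.09. Of the genes with a region, 56.6% were then higher and 10.2% lower, with a median of 0.54.

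A smaller set kept its call without each library in turn and under 3 other scalings. Scaling to kept regions raised the value of every member, so it was no test of the higher calls. Scaling by the sum of counts removed none of them. Of the 12 higher genes, 10 were called higher without each library in turn and under 3 other scalings: Ephb3, Ephb4, Epha2, Ntn1, Ntn3, Sema4g, Sema6c, Plxnb2, Efnb2 and Efnb3. Of the 28 lower genes, 10 were called lower in all of the same fits: Epha3, Epha5, Ephb1, Sema3d, Sema6a, Sema6d, Unc5c, Nrp1, Plxna4 and Robo3. Of all regions, 19.3% were called higher and 11.2% lower in every one of these fits. Of the 41 members of kept regions, 4 were called higher and 9 lower in every fit, against 7.10% and 25.0% of all kept regions. Ephb3, Ephb4, Epha2, Plxnb2 and Efnb3 had no untreated peak, so their regions entered through treated lists alone. Of 8 members with no untreated peak, 5 were called higher and 0 lower, a direction that this choice favours. Their calls, and those of the gained regions below, are not independent of it. The 4 treated libraries were all higher than the 4 untreated ones at 9 members and all lower at 21, against 24.4% and 25.2% of all regions. Among the members of kept regions the counts were 4 (9.76%) and 19 (46.3%), against 8.46% and 53.0% of all kept regions. Levels per kilobase before treatment had a median of 22.1 CPM per kb at the higher genes, 73.0 at the lower ones and 43.6 at those not called. The ranges were 10.7 to 80.8 for the higher and 34.3 to 160 for the lower genes. The same untreated reads enter the fold changes that set the calls, so these levels are not independent of the grouping.

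**Figure D3:**
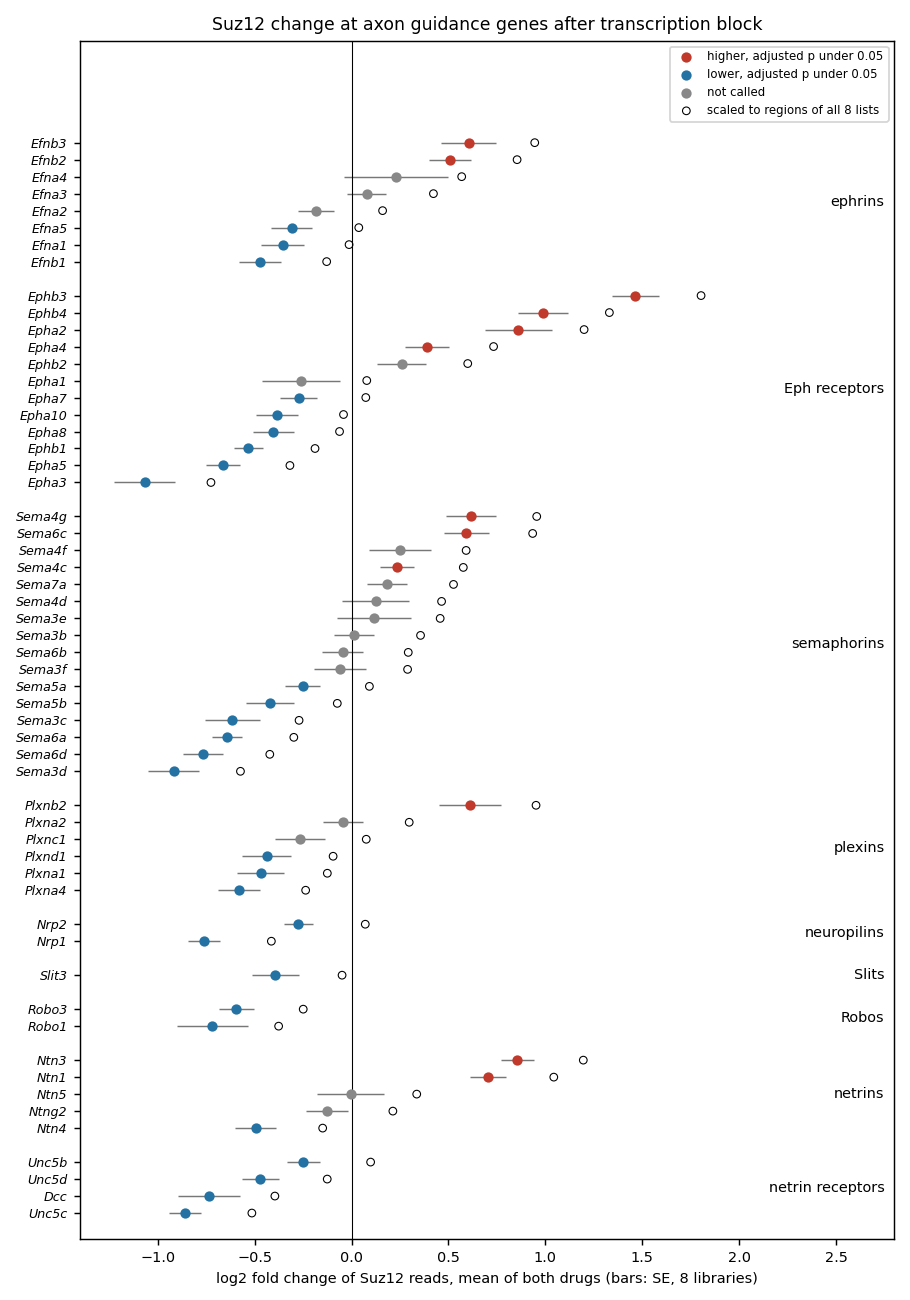
Log2 fold change of Suz12 reads over both drugs (horizontal axis; filled points, bars are standard errors from 8 libraries) at the 56 axon guidance genes with a region, by role; open circles are the same values scaled to the regions of all 8 lists. Ephb3 is highest at 1.46 and Epha3 lowest at -1.07, and every open circle lies to the right of its filled point.

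Among the ephrins, the membrane-bound ligands of Eph receptors, 2 of 8 rose and 3 fell. The background for this family and those below is 28.0% of all regions higher and 28.9% lower. Over all kept regions it is 10.3% and 59.1%. Of the ephrins, Efna5 had the highest level. Its reads were 722 and 576 CPM at DRB 0 h, 633 and 492 at 12 h, 552 and 655 at triptolide 0 h, and 438 and 467 at 9 h. The treated and untreated libraries overlapped, and the log2 fold change of -0.31 ± 0.11 (SE; adjusted p = 0.0238, edgeR) became 0.04 under scaling to kept regions. Efnb1 had 103 and 102 CPM at DRB 0 h, 77.6 and 70.9 at 12 h, 87.7 and 103 at triptolide 0 h, and 64.1 and 73.5 at 9 h. All treated libraries were lower, and the log2 fold change was -0.47 ± 0.11 (adjusted p = 0.00265, edgeR), or -0.13 without a call under scaling to kept regions. Efnb2, whose ligand acts in vessel and neural development, rose by 0.51 ± 0.11 on the log2 scale.

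Efnb3 had 30.4 and 26.1 CPM at DRB 0 h and 24.4 and 29.0 at 12 h. At triptolide 0 h it had 26.7 and 23.5 CPM, and at 9 h 64.9 and 53.7. Only the triptolide libraries stood apart, with a log2 fold change of 1.24 ± 0.19 (adjusted p = 0.000629, edgeR) against -0.03 ± 0.21 under DRB. The region is also at an end of Wrap53, so the reads cannot be given to either gene. The difference between drugs was -1.27 ± 0.29 with an adjusted p of 0.959 and an unadjusted p of 0.000744 (edgeR). Over 16 other fits its adjusted p ranged from 0.000842, with blocks for replicate and index, to 1.00.

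The Eph receptors, the largest family of receptor tyrosine kinases, moved both ways: 4 of the 12 with a region rose and 6 fell. Ephb3 changed most of all members. It had 23.8 and 27.3 CPM at DRB 0 h, 70.8 and 74.0 at 12 h, 29.5 and 26.0 at triptolide 0 h, and 75.5 and 77.2 at 9 h. Every treated library was above every untreated one, and the log2 fold change was 1.46 ± 0.12 (adjusted p = 3.12e-06, edgeR), or 2.76-fold. This is the gained region that holds the promoter printed above. It was defined by peaks of the treated lists, so its reads in the same libraries are no independent support for the gain. Ephb4, a receptor for ephrin-B2 known from blood vessels, had 32.1 and 36.5 CPM at DRB 0 h and 67.2 and 65.7 at 12 h. Its triptolide values were 25.2 and 30.3 CPM at 0 h and 62.2 and 52.2 at 9 h. The groups did not overlap, and the log2 fold change was 0.99 ± 0.13 (adjusted p = 5.79e-05, edgeR). The same limit of a gained region applies to Ephb4.

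Ephb1 was the Eph receptor gene with the highest level and moved the other way. It had 452 and 454 CPM at DRB 0 h, 330 and 322 at 12 h, 489 and 504 at triptolide 0 h, and 313 and 347 at 9 h. Every treated library was lower, with a log2 fold change of -0.53 ± 0.08 (adjusted p = 0.000111, edgeR). Epha3 fell most of all members. Its reads were 42.7 and 55.5 CPM at DRB 0 h, 20.0 and 30.0 at 12 h, 69.4 and 54.5 at triptolide 0 h, and 27.9 and 27.1 at 9 h. The groups did not overlap, and the log2 fold change was -1.07 ± 0.16 (adjusted p = 0.000132, edgeR). Epha2 had no peak in any untreated list and had one in both DRB 12 h lists. Its log2 fold change was 1.35 ± 0.25 under DRB and 0.37 ± 0.24 under triptolide, and the difference of 0.98 ± 0.35 had an adjusted p of 0.999 (edgeR).

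**Figure D4:**
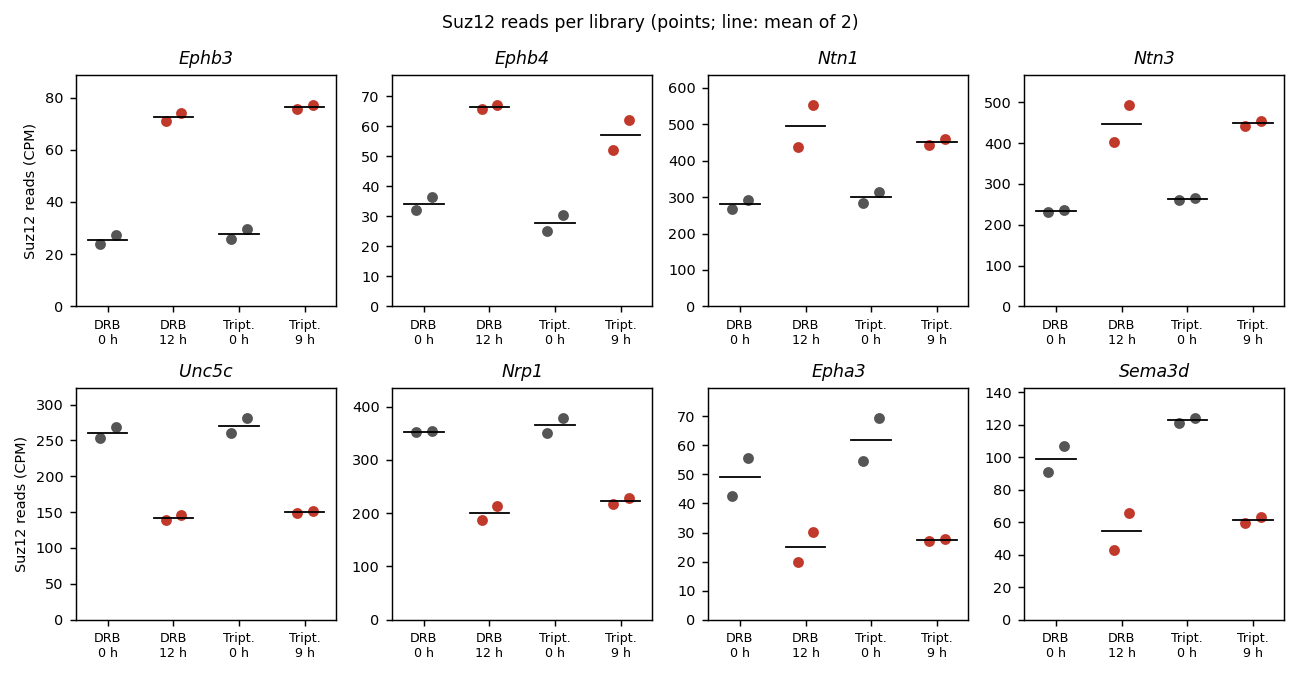
Suz12 reads (CPM, linear axis from 0) in each library at 4 genes that rose (top) and 4 that fell (bottom); grey points are untreated and red points treated libraries, drawn in order of value within a group, and lines are means of 2. The treated libraries of Ephb3 lie between 70.8 and 77.2 CPM and its untreated ones between 23.8 and 29.5.

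Semaphorins are secreted or membrane-bound cues. Of the 16 with a region, 3 rose and 6 fell. By class, none of the 4 Sema4 genes with a region fell, and under scaling to kept regions all 4 were called higher. Of all regions, 47.4% were called higher under that scaling. The share was 98.5% of gained genes (Sema4d) and 68.1% of genes with another pattern (Sema4f and Sema4g). It was 30.6% of kept genes (Sema4c). Both Sema5 genes fell, but under scaling to kept regions neither was called. They have kept regions, of which 59.1% were called lower under TMM scaling. Sema4g had 32.1 and 34.1 CPM at DRB 0 h, 59.2 and 60.0 at 12 h, 42.1 and 37.5 at triptolide 0 h, and 59.0 and 45.8 at 9 h. All treated libraries were higher, and the log2 fold change was 0.61 ± 0.13 (adjusted p = 0.00153, edgeR).

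Sema4d, a membrane-bound ligand of plexin-B1, was gained by its peaks, but its reads were not called higher under TMM scaling. Its reads were 37.0 and 28.2 CPM at DRB 0 h, 43.2 and 27.3 at 12 h, 26.4 and 26.4 at triptolide 0 h, and 30.7 and 27.3 at 9 h. The groups overlapped, and the log2 fold change was 0.12 ± 0.17 (adjusted p = 0.555, edgeR). Under scaling to kept regions it was 0.46 and called higher (adjusted p = 0.0344, edgeR). None of its 3 RefSeq starts lies in that region, and their windows hold 2 or 3 CpG. Of the 869 genes whose region was gained, 793 were called higher. Gained regions were chosen by peaks of the same libraries, which favours that call.

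Sema6c, which encodes a transmembrane semaphorin, had 2 regions that both rose. Its region with more reads, a kept one that holds no listed start, had 249 and 212 CPM at DRB 0 h and 432 and 308 at 12 h. Triptolide values were 204 and 247 CPM at 0 h and 323 and 312 at 9 h, and the groups did not overlap. The log2 fold change was 0.59 ± 0.12 (adjusted p = 0.000944, edgeR). Its other region, a gained one over a RefSeq start at the other end, had a log2 fold change of 0.98 ± 0.12 (adjusted p = 3.73e-05, edgeR).

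Sema3d, a secreted semaphorin, fell most in its family. It had 91.2 and 107 CPM at DRB 0 h, 43.2 and 66.0 at 12 h, 121 and 124 at triptolide 0 h, and 63.3 and 59.5 at 9 h. The groups did not overlap, and the log2 fold change was -0.92 ± 0.13 (adjusted p = 0.00011, edgeR). Sema5b had the highest level of the family, with 790 and 560 CPM at DRB 0 h, 589 and 416 at 12 h, 593 and 671 at triptolide 0 h, and 483 and 464 at 9 h. Its groups overlapped, and the log2 fold change of -0.42 ± 0.12 (adjusted p = 0.0118, edgeR) was -0.07 and not called under scaling to kept regions. Sema6d and Sema6a also fell, by 0.77 and 0.64 on the log2 scale.

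Plexins and neuropilins are the receptors of semaphorins. Of the 6 plexins with a region, 1 rose and 3 fell. Plxnb2 had 16.4 and 20.9 CPM at DRB 0 h, 36.4 and 29.1 at 12 h, 22.7 and 18.8 at triptolide 0 h, and 27.3 and 31.2 at 9 h. The groups did not overlap, and the log2 fold change was 0.61 ± 0.16 (adjusted p = 0.00573, edgeR); the region is shared with an end of Dennd6b. Another, gained region inside Plxnb2 holds another of its starts and rose by 1.00 ± 0.13 on the log2 scale.

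Plxna4 had 454 and 393 CPM at DRB 0 h, 334 and 260 at 12 h, 387 and 485 at triptolide 0 h, and 260 and 295 at 9 h. Every treated library was lower, with a log2 fold change of -0.58 ± 0.11 (adjusted p = 0.000669, edgeR). Plxnd1, a receptor for semaphorin 3E, had the highest level before treatment of the plexins, with 685 and 597 CPM at DRB 0 h and 603 and 399 at 12 h. It had 580 and 752 CPM at triptolide 0 h and 436 and 493 at 9 h. The groups overlapped, and the log2 fold change of -0.44 ± 0.13 (adjusted p = 0.0106, edgeR) was -0.09 and not called under scaling to kept regions.

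Both neuropilins, co-receptors for class 3 semaphorins and for VEGF, fell, but scaling to kept regions turned the sign of Nrp2. Both genes have kept regions, and 59.1% of all kept regions were called lower. Nrp1 had 354 and 352 CPM at DRB 0 h, 187 and 214 at 12 h, 351 and 378 at triptolide 0 h, and 217 and 229 at 9 h. Its log2 fold change was -0.76 ± 0.08 (adjusted p = 2.1e-05, edgeR), with all treated libraries below all untreated ones. Nrp2 had 642 and 566 CPM at DRB 0 h, 504 and 496 at 12 h, 631 and 615 at triptolide 0 h, and 529 and 497 at 9 h. Its groups did not overlap, but the log2 fold change of -0.27 ± 0.08 (adjusted p = 0.00797, edgeR) turned to 0.07 under scaling to kept regions.

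Slits are secreted ligands, and Robos are their receptors. Slit3, the one Slit with a region at an end, had 222 and 161 CPM at DRB 0 h, 171 and 129 at 12 h, 155 and 159 at triptolide 0 h, and 112 and 119 at 9 h. The groups overlapped, and the log2 fold change of -0.39 ± 0.12 (adjusted p = 0.0151, edgeR) was -0.05 and not called under scaling to kept regions. A region with fewer reads at the other end of Slit3 (mean 19.8 CPM) had a log2 fold change of -0.77 ± 0.22 (adjusted p = 0.00924, edgeR). All its treated libraries were lower, and under scaling to kept regions the value was -0.44 without a call. Robo3, which controls midline crossing of axons, had 212 and 195 CPM at DRB 0 h and 130 and 139 at 12 h. It had 216 and 204 CPM at triptolide 0 h and 145 and 131 at 9 h. The groups did not overlap, and the log2 fold change was -0.59 ± 0.09 (adjusted p = 0.000143, edgeR).

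Both Robos with a region at an end fell, although Robo1 lost its call under scaling to kept regions. Their regions are kept ones, and 59.1% of all kept regions were called lower. At an annotated end, Robo1 had 64.1 and 70.4 CPM at DRB 0 h, 24.8 and 52.1 at 12 h, 82.3 and 70.4 at triptolide 0 h, and 51.2 and 43.1 at 9 h. All treated libraries were lower, and the log2 fold change was -0.72 ± 0.18 (adjusted p = 0.00505, edgeR), or -0.38 without a call under scaling to kept regions. The RefSeq start of Robo1 lies instead in a gained region with 28.1 ± 3.00 CPM (SD, n = 4) in untreated and 33.3 ± 7.24 CPM in treated libraries. There the log2 fold change was 0.25 ± 0.14 (adjusted p = 0.153, edgeR).

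Of the 5 netrins with a region, 2 rose and 1 fell. Netrin-1 is a secreted cue that attracts axons through Dcc and repels them through Unc5 receptors. Ntn1 had 268 and 293 CPM at DRB 0 h, 554 and 438 at 12 h, 284 and 314 at triptolide 0 h, and 443 and 461 at 9 h. All treated libraries were higher, with a log2 fold change of 0.70 ± 0.09 (adjusted p = 6.31e-05, edgeR). Ntn3 had 230 and 235 CPM at DRB 0 h, 494 and 402 at 12 h, 260 and 265 at triptolide 0 h, and 442 and 454 at 9 h. Its groups did not overlap either, and the log2 fold change was 0.86 ± 0.09 (adjusted p = 1.28e-05, edgeR); an end of Tbc1d24 shares this region. Ntn4 had 293 and 241 CPM at DRB 0 h, 216 and 178 at 12 h, 239 and 275 at triptolide 0 h, and 163 and 187 at 9 h. The groups did not overlap, and its log2 fold change was -0.49 ± 0.11 (adjusted p = 0.00163, edgeR), or -0.15 and not called under scaling to kept regions.

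All 4 netrin receptors with a region fell, and under scaling to kept regions Unc5c alone was called lower while Unc5b turned to 0.10. These 4 genes have kept regions, and 59.1% of all kept regions were called lower, or 25.0% under that scaling. Unc5c had 269 and 253 CPM at DRB 0 h, 146 and 139 at 12 h, 260 and 281 at triptolide 0 h, and 151 and 149 at 9 h. Every treated library was lower, and the log2 fold change was -0.86 ± 0.08 (adjusted p = 1.03e-05, edgeR). Unc5b had 437 and 365 CPM at DRB 0 h, 363 and 345 at 12 h, 432 and 477 at triptolide 0 h, and 349 and 377 at 9 h. Its groups overlapped, with a log2 fold change of -0.25 ± 0.09 (adjusted p = 0.0261, edgeR). Dcc and Unc5d fell by 0.74 and 0.47 on the log2 scale.

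Of the 15 genes without a region at an end, 8 had one over a RefSeq start further inside the gene. There the log2 fold changes were -0.85 ± 0.10 at Epha6, -0.78 ± 0.13 at Robo2, -0.49 ± 0.11 at Unc5a, -0.49 ± 0.15 at Ephb6, -0.47 ± 0.09 at Ntng1 and -0.31 ± 0.08 at Slit2, all with an adjusted p under 0.05 (edgeR). At Sema4b the value was 0.59 ± 0.19 with an adjusted p of 0.0184, and at Plxnb1 0.40 ± 0.22 with an adjusted p of 0.130. Under scaling to kept regions, Epha6 and Robo2 were still called lower, Unc5a, Ntng1, Ephb6 and Slit2 lost their calls, and Slit2 turned to 0.04. Sema4b stayed higher, and Plxnb1 was called higher at 0.74 (adjusted p = 0.0103, edgeR). Slit1 had a kept region 2815 bp inside an end. Efna2, not called at its region with more reads, had another region over its start with a log2 fold change of 0.39 ± 0.13 (adjusted p = 0.0228, edgeR). No region lay at an end or a listed start of Sema3a, Sema3g, Sema4a, Robo4, Plxna3 or Plxnb3.

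The peaks of kept members were wide. Their regions had a median width of 3395 bp, against 2370 bp for all kept regions. The median length covered by peaks was 2362 bp in untreated and 2870 bp in treated lists, and 1786 and 1976 bp over all kept regions. Ntn3 peaks covered 3134 to 4253 bp in the untreated lists and 5022 to 5476 bp in the treated ones, so the lists did not overlap. Unc5c peaks covered 2138 to 2308 bp untreated and 2124 to 2222 bp treated, so covered length there overlapped although reads fell.

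Each drug alone gave fewer calls. Under DRB, 10 members were higher and 17 lower, against 18.1% and 19.2% of all regions, and under triptolide 7 were higher and 22 lower, against 19.3% and 21.9%. Among the 41 members of kept regions, DRB gave 4 higher and 15 lower (6.82% and 42.4% of all kept regions) and triptolide 4 higher and 20 lower (6.77% and 48.7%). Scaled to kept regions, DRB gave 14 higher and 5 lower (30.5% and 5.03% of all regions) and triptolide 17 higher and 7 lower (36.1% and 4.98%). Both drugs called the same 6 genes higher (Efnb2, Ephb3, Ephb4, Ntn1, Ntn3 and Sema6c) and the same 16 lower, against 14.3% and 16.5% of all regions. Of the 41 members of kept regions, 4 were higher and 14 lower under both drugs, against 5.28% and 38.5% of all kept regions, and no member was called in opposite directions. No member differed between the drugs (edgeR), where 0.0% of all regions were called higher and 0.0167% lower under DRB than under triptolide. At an unadjusted p under 0.05, 2 members differed, Efnb3 and Epha2, and DESeq2 gave the same 2 at that level and none after adjustment. The drugs had separate 0 h libraries, and across the 56 genes, which are not independent replicates, the log2 fold changes had a Pearson r of 0.89, against 0.88 over all regions.

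**Figure D5:**
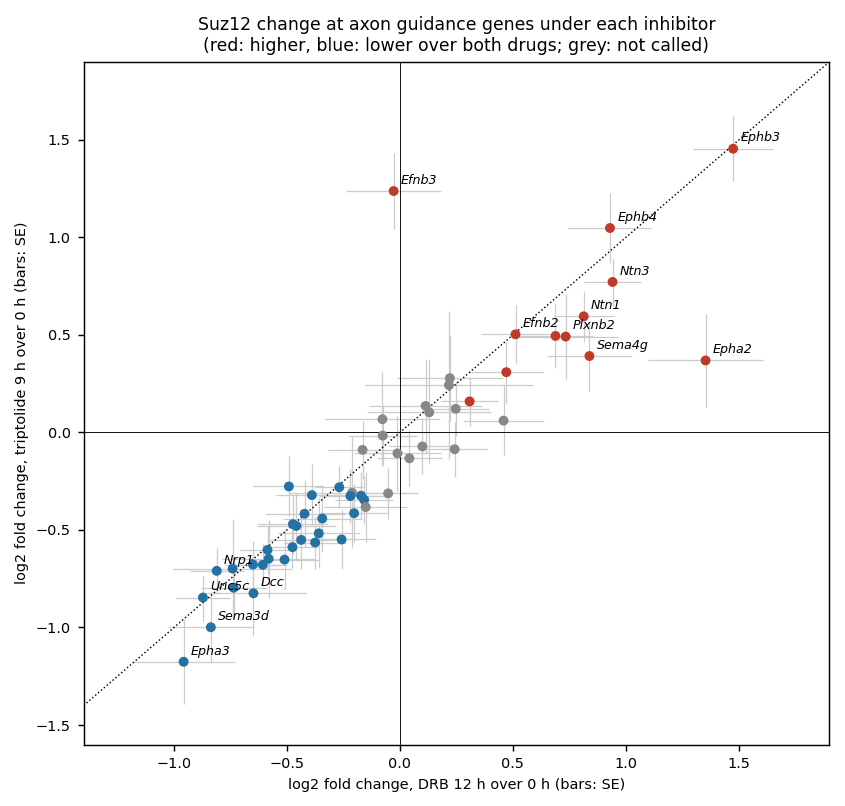
Log2 fold change under DRB (horizontal axis, 12 h over 0 h) and triptolide (vertical axis, 9 h over 0 h) at the 56 axon guidance genes with a region; bars are standard errors, the dotted line marks equal change, and colours give the call over both drugs. Most genes lie near the dotted line, with Efnb3 at -0.03 and 1.24 and Epha2 at 1.35 and 0.37 farthest from it.

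Other genes of the pathway were taken from a list of 56 co-receptors, adhesion molecules and cytoplasmic effectors, of which 46 had a region. Over both drugs 12 were higher (26.1%) and 17 lower (37.0%), against 28.0% and 28.9% of all regions. The median log2 fold change was -0.17. Under scaling to kept regions 18 were higher (39.1%) and 8 lower (17.4%), against 47.4% and 11.2% of all regions. Srgap2, an effector of Slit and Robo signalling, had a gained region that rose by 1.26 ± 0.13 on the log2 scale. Vav2, a guanine nucleotide exchange factor that acts downstream of Eph receptors, rose by 1.11 ± 0.13. Dscam, a netrin-binding adhesion molecule, had a log2 fold change of -1.02 ± 0.18, and the contactin gene Cntn4 one of -0.98 ± 0.14, each with an adjusted p under 0.05 (edgeR).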

How the data were processed

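Suz12 ChIP-seq was analysed in 8 libraries of 4 groups. Per the submitters' processing notes, the authors used Bowtie and MACS with mm10 (GRCm38); their versions were not given in these sources. The authors deposited 1 peak list per library, with raw read counts over its peaks in 13 columns, of which 5 were not used. DRB columns name a group and an index but no replicate, so DRB libraries are named by index. Peaks overlapping by 1 bp were merged, and a region took the counts over its widest peak. A gene's region lay within 1 kb of either annotated end (GRCm38.p6, no strand); of several, the one with the highest mean CPM was used. Counts were tested in edgeR 4.0.16 (R 4.3.3; quasi-likelihood, TMM, 4 groups, no filter), with Benjamini-Hochberg adjustment over 11943 regions. On simulated data for both drugs over 11943 regions, the fit recovered 41.8% of changes of 1.5-fold, 86.6% at 2-fold and 100% at 3-fold, with 3 of 11743 unchanged regions called. Only 200 regions were changed in the simulation, so it does not cover the effect of scaling on the calls.

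Values in every library are given for members with a gained or lost region and, per role, for those with the highest level and the highest and lowest called change; other members with values were chosen after these were seen. The members and lists were chosen with earlier results of these data known. Alternatives were other scalings, DESeq2 1.42.0, a low-count filter, other windows, peak rules and counted intervals, a replicate block and each library left out; regions at RefSeq starts and the index block were added after seeing the data. RefSeq windows were not matched for Dcc, Efnb3, Ntn1, Plxna1, Plxna4, Sema3b, Sema3f, Sema6a, Slit1 and Unc5d.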

Additional observations from a re-analysis of the deposited data

How the results depend on the processing

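Scaling had the widest effect. Scaling to kept regions gave 21 higher and 10 lower members over both drugs, 5 lower under DRB, and 17 higher and 7 lower under triptolide; it turned Efna5 to 0.038, Nrp2 to 0.071 and Unc5b to 0.10 on the log2 scale. Scaling by the sum of counts gave 16 lower over both drugs, 9 lower under DRB, and 12 higher and 10 lower under triptolide. Summing a gene's regions, which also set the scaling from the genes with a region, gave 27 lower under DRB and -0.00098 for Sema4d, which has 1 region. At RefSeq starts Robo1 was 0.25. With peaks in 3 of 4 lists, 5 members were gained, Efnb3 and Plxnb2 among them. Without each library in turn, members higher ranged from 10 to 14 and lower from 21 to 29 over both drugs. The ranges were 6 to 13 higher and 10 to 18 lower under DRB, with 6 higher without DRB 0 h index TGACCA, 10 lower without DRB 0 h index ATCACG and 11 lower without DRB 0 h index TGACCA. Under triptolide they were 5 to 8 higher and 10 to 25 lower, with 11 lower without 0 h replicate 2, 10 without 9 h replicate 1 and 11 without 9 h replicate 2. Sema4d ranged from -0.016 without DRB 12 h index ATCACG to 0.30 without DRB 12 h index TGACCA. Of 495 values of the 25 genes given in full, over 20 settings, 461 kept direction and call, 27 lost the call, 1 gained it and 6 changed sign; the cause was not tested.

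Libraries with the same triptolide number deviated together (correlation 0.39), as did DRB libraries of the same index (0.38), but with 2 pairs each this does not establish pairing. With the replicate block for triptolide, 11 members were higher and 28 lower over both drugs, 9 and 15 under DRB, 7 and 20 under triptolide, and none differed between drugs. Adding the index block for DRB gave 27 lower under DRB and 1 member, Efnb3, lower in the difference between drugs. Depth limits the low regions: Efna4 and Epha1 had 16 reads each in the shallowest library.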
